A study of Mus musculus with 8 samples.

Results

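Pou5f1, Nanog, Sox2, Klf2, Klf4, Esrrb, Zfp42, Tfcp2l1, Prdm14 and Tbx3 encode the transcription factors that hold mouse embryonic stem cells (ESCs) in the naive state, and their transcripts were measured in ESCs with and without the histone deacetylase gene Hdac3. The 10 genes were chosen by name, from what they are known to do and with earlier results of these data known, out of 24542 gene symbols in the count tables. RNA-seq was performed on 8 samples in 4 groups of 2. The Hdac3+/+ groups are TX1072, a female ESC line from a cross of Mus musculus castaneus (Cast) and C57BL/6 (B6), at 0 hr and at 24 hr of doxycycline (DOX), and the Hdac3-/- groups are clones derived from TX1072 with CRISPR/Cas9, at the same times. In both genotypes added DOX drives Xist from the B6 X chromosome, so that the 24 hr groups also carry Xist induction and the 0 hr groups do not. All cells grew on gelatin in serum medium with LIF and 2i, the MEK inhibitor PD0325901 and the GSK3 inhibitor CHIR99021. According to the methods there are 2 Hdac3-/- clones. The sample labels give replicate numbers only, and the Hdac3+/+ samples come from 1 line, so p-values for the difference between genotypes measure the spread between these samples and not between independently derived lines.

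POU5F1 and SOX2 bind DNA together and are needed for pluripotency in both its naive and its later forms. NANOG, ESRRB, KLF2, KLF4, TFCP2L1, TBX3 and PRDM14 stabilise the naive state and are wired to the culture signals: LIF acts through its receptor (LIFR with gp130, encoded by Il6st) and STAT3 on Klf4 and Tfcp2l1, GSK3 inhibition relieves TCF7L1 repression of Esrrb, and MEK inhibition favours Klf2 and Nanog. ZFP42 (REX1) is the usual reporter of the naive state. HDAC3 is the catalytic subunit of the NCoR/SMRT corepressor complexes.

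Libraries held 6940375 to 17125156 reads on genes, of which 30.1% to 31.6% were assigned to an allele. Hdac3 itself had 41.5 to 47.0 counts per 1000000 reads (CPM, over the genes tested and TMM-normalised) in the 4 Hdac3+/+ samples and 6.09 to 8.15 CPM in the 4 Hdac3-/- samples, in accord with the labels. The summed level of 7 ESC identity markers was 3964 to 4420 CPM in Hdac3+/+ and 4531 to 4797 CPM in Hdac3-/- samples. The 7 include the members Pou5f1, Nanog and Sox2, so the sum is not separate from their results below. Nanog alone had 1043 to 1137 CPM in Hdac3+/+ and 1504 to 1802 CPM in Hdac3-/- samples. Of the other markers, Cdh1 was lower at 0 hr (log2 fold change -0.49, edgeR, adjusted p = 0.0499). Alpl was at -0.135, Utf1 at 0.163 and Dppa5a at 0.105. Formative and primed epiblast is the state that follows naive pluripotency. Its markers summed to 378 to 428 CPM in Hdac3+/+ and 261 to 324 CPM in Hdac3-/- samples. Most of that sum came from Zic2 (181 and 182 against 143 and 159 CPM at 0 hr) and Dnmt3b (145 and 154 against 93.1 and 97.6 CPM). At 0 hr Otx2 was at 0.09 on the log2 scale and the other tested markers were below 0. Of the 5 tested, 1 was lower at 0 hr and 2 at 24 hr, where 13.6% and 12.9% of all genes differed in either direction. The de novo DNA methyltransferase Dnmt3b (log2 fold change -0.65 and -0.61) was lower at both times, and Zic2 (-0.49, adjusted p = 0.0468) at 24 hr only. Mesoderm markers, with Mesp1 at 0 in every sample, summed to 28.6 to 77.6 CPM over all 8 samples, without a split by genotype. Primitive endoderm markers summed to 5.77 to 8.11 CPM over all 8 samples, but single markers differed. Sox7 had 3.19 and 2.65 CPM in Hdac3+/+ and 0.654 and 1.22 CPM in Hdac3-/- samples at 0 hr. It was called lower by edgeR (-1.67, adjusted p = 0.0469) but not by DESeq2. Sox17 had 0.875 to 1.146 CPM in Hdac3+/+ and 0.0937 to 0.29 CPM in Hdac3-/- samples, and Pdgfra 0.984 to 1.56 and 2.75 to 3.37 CPM. Fibroblast markers, with Col3a1 at 0 in 6 of 8 samples, were at 44.8 to 65.3 CPM in Hdac3+/+ and 31.7 to 44.5 CPM in Hdac3-/- samples, neural markers at 41.7 to 53.0 and 30.4 to 35.8 CPM, trophoblast markers at 67.8 to 111.8 and 58.1 to 70.7 CPM, and markers of the cleavage-stage-like state at 5.94 to 9.33 and 0.656 to 5.23 CPM. Nes, which was not called, made up most of the neural sum, and Tfap2c was the largest part of the trophoblast sum. At 0 hr Sox1 (-1.70, adjusted p = 0.0210) and Tfap2c (-0.63, adjusted p = 0.0247) were called lower by edgeR. Neurod1 (1.31) and Eomes (0.75) were higher without a call. The marker calls at 0 hr rested on both Hdac3+/+ samples, and in a fit of all 8 samples Sox7 and Cdh1 were not called. The part of these marker shifts in the results that follow was not tested, and in bulk RNA fewer cells of a type and less RNA per cell cannot be told apart.

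Sequences upstream of the members were read from RefSeq (GRCm38.p6), which gives a window of 250 bases before to 50 bases after the start site for 8 of the 10 genes. Prdm14 and Tbx3 have no window in that table. Each window was searched on both strands for the core of the octamer that POU5F1 binds (TTTGCAT), a SOX2 site (ACAATG), an ESRRB half-site (AAGGTCA) and the CACCC-type site of the KLF family (CCACCC). Of 32851 promoter windows, 4.63% hold the octamer core, 12.6% the SOX2 letters, 4.72% the ESRRB letters and 31.5% the KLF letters. Among the members the octamer core was in at least 1 window of Nanog, Sox2 and Zfp42, the SOX2 letters in that of Nanog, Esrrb and Pou5f1, the KLF letters in that of Pou5f1, Nanog, Klf2, Esrrb and Zfp42, and the ESRRB letters in none. The windows with the octamer core are shown with that of Esrrb, a member without it, to show where matches for these factors lie near the start sites of other members. Capitals mark the matches, on either strand.
Nanog (chr6:122707315-122707614, plus strand): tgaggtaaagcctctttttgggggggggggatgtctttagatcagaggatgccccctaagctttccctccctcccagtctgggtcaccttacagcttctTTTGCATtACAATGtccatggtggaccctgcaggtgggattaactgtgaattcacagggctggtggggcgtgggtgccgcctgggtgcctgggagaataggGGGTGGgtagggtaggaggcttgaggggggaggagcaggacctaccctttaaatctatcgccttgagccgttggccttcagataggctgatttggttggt
Sox2 (chr3:34649745-34650044, plus strand): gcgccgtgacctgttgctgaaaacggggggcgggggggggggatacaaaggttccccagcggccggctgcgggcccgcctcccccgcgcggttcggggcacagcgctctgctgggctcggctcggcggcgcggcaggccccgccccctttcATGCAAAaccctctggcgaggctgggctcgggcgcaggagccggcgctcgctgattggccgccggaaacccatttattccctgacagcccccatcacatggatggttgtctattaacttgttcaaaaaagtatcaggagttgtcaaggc
Zfp42 (chr8:43306960-43307259, minus strand): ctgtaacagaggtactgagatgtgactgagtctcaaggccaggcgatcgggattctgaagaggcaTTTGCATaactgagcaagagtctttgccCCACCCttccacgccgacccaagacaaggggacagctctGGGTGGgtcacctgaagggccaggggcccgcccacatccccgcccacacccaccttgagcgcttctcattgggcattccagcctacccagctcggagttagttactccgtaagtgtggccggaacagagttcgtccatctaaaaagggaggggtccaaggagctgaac
Esrrb (chr12:86360867-86361166, plus strand): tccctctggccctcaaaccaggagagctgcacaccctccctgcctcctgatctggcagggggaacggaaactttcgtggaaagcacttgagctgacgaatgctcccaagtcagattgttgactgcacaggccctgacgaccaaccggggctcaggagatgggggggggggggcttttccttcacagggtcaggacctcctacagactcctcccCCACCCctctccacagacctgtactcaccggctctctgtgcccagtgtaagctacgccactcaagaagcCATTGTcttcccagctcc
RefSeq gives 2 windows each for Pou5f1, Nanog and Esrrb, and the window of Nanog and that of Esrrb shown is 1 of these. From the start site of the Nanog window shown, the octamer core starts 151 bases before and the SOX2 letters 143 bases before, so that the matches are separated by a single base. From the other Nanog start site, which the gene's coordinates given with its neighbours use, the same matches lie 75 and 67 bases before. In Zfp42 the core starts 185 bases before the start site, followed by KLF matches at 157 and 118 bases. A match describes the letters only.

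Levels were compared between members per length, as TPM (transcripts per 1000000, with exon lengths from GENCODE). In Hdac3+/+ cells at 0 hr Nanog was highest, with 1652 and 1526 TPM, followed by Pou5f1 with 844 and 749 TPM. Klf2 (648 and 677 TPM), Sox2 (624 and 600 TPM) and Tfcp2l1 (528 and 510 TPM) came next, each above the following gene in both samples. Zfp42 (467 and 406 TPM) and Esrrb (425 and 402 TPM) overlapped. Klf4 (269 and 282 TPM) and Tbx3 (262 and 259 TPM) were lower, and Prdm14, with 150 and 138 TPM, was the least abundant of the 10. In Hdac3-/- cells at 0 hr the order changed in its middle: Zfp42 rose from rank 6 to rank 3 and Tbx3 from rank 9 to rank 6, and Zfp42, Klf2, Sox2 and Tbx3 formed a run in which each overlapped the next. Nanog and Pou5f1 stayed first and second and Prdm14 last in all 4 groups.

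To see which of these genes differ without HDAC3 before Xist is induced, Hdac3-/- and Hdac3+/+ cells were compared at 0 hr with edgeR. A call means an adjusted p under 0.05 over the 13226 genes tested, of which 13.6% were called, 6.33% as higher in Hdac3-/- cells. All 10 members were tested. Tbx3, Zfp42, Nanog and Prdm14 were higher in Hdac3-/- cells, and none of the 10 was called lower. The median log2 fold change was 0.23 over the members and 0.00 over all genes tested. Tbx3, a T-box factor that supports self-renewal, had 496 and 524 CPM in Hdac3+/+ and 1268 and 1136 CPM in Hdac3-/- samples. Every Hdac3-/- value was thus above 2 times the Hdac3+/+ values, a log2 fold change of 1.24 ± 0.09 (SE, adjusted p = 0.000474). Tbx3 was the only member that was called and also passed an absolute log2 fold change of 1, as 6.19% of all genes did.

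Nanog, a homeodomain factor at the centre of the network, had 1059 and 1043 CPM in Hdac3+/+ and 1802 and 1544 CPM in Hdac3-/- samples. The groups did not overlap, and the log2 fold change was 0.67 ± 0.10 (SE, adjusted p = 0.00486), or 1.60-fold. Zfp42, a zinc finger factor, had 251 and 233 CPM in Hdac3+/+ and 430 and 352 CPM in Hdac3-/- samples. It differed by 0.70 ± 0.12 on the log2 scale (SE, adjusted p = 0.00858), and the Hdac3-/- samples were farther from each other than the Hdac3+/+ samples. Prdm14, a PR-domain protein that represses FGF signalling and DNA methyltransferase genes, had 110 and 108 CPM in Hdac3+/+ and 155 and 136 CPM in Hdac3-/- samples. Its difference was the smallest of those called, 0.42 ± 0.11 (SE, adjusted p = 0.0375). The calls of these 3 genes rested on both Hdac3+/+ samples: with replicate 1 or replicate 2 left out the log2 fold changes were 0.68 and 0.65 for Nanog, 0.74 and 0.63 for Zfp42 and 0.43 and 0.39 for Prdm14, and the adjusted p was 0.0513 and 0.0524, 0.0637 and 0.0934, and 0.222 and 0.256. Tbx3 was called without any 1 of the 4 samples.

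**Figure D1:**
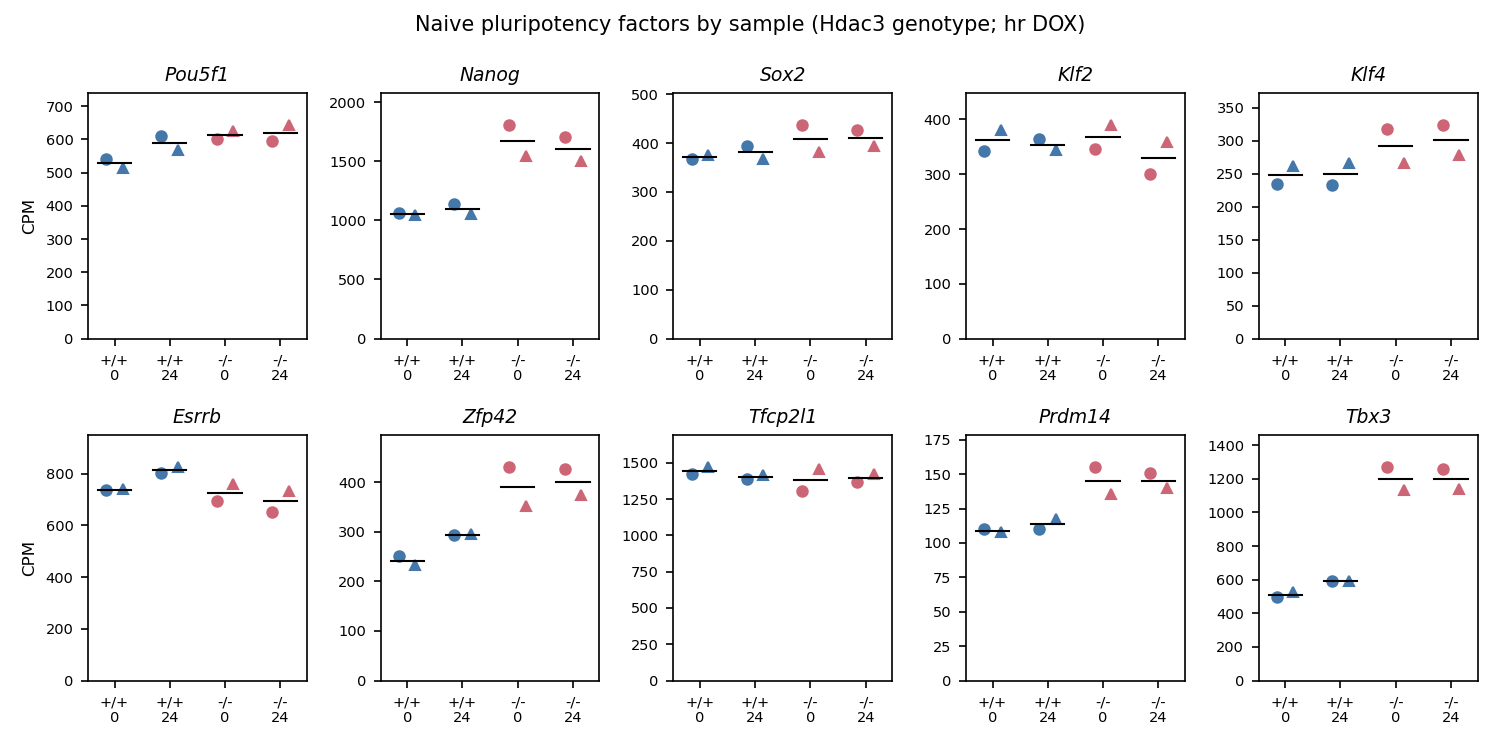
CPM (y axis, from 0) of each of the 10 factors in the 4 groups (x axis, Hdac3 genotype above hr of DOX), with circles for replicate 1, triangles for replicate 2 and a line at the mean of the 2. Hdac3-/- samples lie above all Hdac3+/+ samples for Nanog, Zfp42, Prdm14 and Tbx3.

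The other 6 members did not pass the test at 0 hr. Pou5f1, the POU factor, had 543 and 513 CPM in Hdac3+/+ and 601 and 624 CPM in Hdac3-/- samples, without overlap, and a log2 fold change of 0.22 (95% interval 0.03 to 0.41, adjusted p = 0.126). Its partner Sox2, an HMG-box factor, had 367 and 377 CPM and 436 and 382 CPM (0.14, interval -0.08 to 0.36). Klf4, a zinc finger factor downstream of STAT3, had 234 and 262 CPM and 317 and 266 CPM. The lowest Hdac3-/- value of Klf4 was barely above the highest Hdac3+/+ value (0.24, interval -0.03 to 0.50), and without Hdac3-/- replicate 2 the gene was called (0.36, adjusted p = 0.00642). Klf2 (0.03, interval -0.20 to 0.26), the orphan nuclear receptor gene Esrrb (-0.02, interval -0.22 to 0.18) and the CP2-family gene Tfcp2l1 (-0.06, interval -0.26 to 0.14) overlapped between genotypes. None of these intervals shows that a gene did not differ. In 7 of the 10 members both Hdac3-/- samples were above both Hdac3+/+ samples, and in 0 below, against 29.2% of all genes above and 29.8% below.

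At 24 hr of DOX the same comparison was made in a fit of all 8 samples, in which 12.9% of 13807 genes were called, 6.16% as higher. Tbx3, Nanog, Zfp42 and Prdm14 were called again and no member was called lower. Tbx3 had 593 and 594 CPM in Hdac3+/+ and 1261 and 1138 CPM in Hdac3-/- samples (1.02 ± 0.08, SE, adjusted p = 0.000310). Nanog had 1137 and 1054 CPM and 1706 and 1504 CPM (0.55 ± 0.10, adjusted p = 0.00711). Zfp42 had 293 and 295 CPM and 427 and 373 CPM (0.45 ± 0.11, adjusted p = 0.0301). In each case the genotypes did not overlap. Prdm14 had 110 and 118 CPM and 151 and 140 CPM (0.36 ± 0.10, adjusted p = 0.0421), and lost the call under DESeq2 (adjusted p = 0.0546), voom with limma (0.0532) and a fit of the 24 hr samples alone (0.0607), as it did without any 1 of the 4 samples (adjusted p from 0.0520 to 0.235). Without Hdac3+/+ replicate 1 or 2 the adjusted p was 0.0504 and 0.0847 for Nanog and 0.169 and 0.160 for Zfp42, and without Hdac3-/- replicate 1 it was 0.107 for Zfp42.

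At 24 hr both Hdac3-/- samples lay above both Hdac3+/+ samples in 6 members and below in 1, against 28.8% and 27.9% of all genes tested. The 1 below was Esrrb, with 804 and 824 CPM in Hdac3+/+ and 653 and 732 CPM in Hdac3-/- samples. Its log2 fold change of -0.23 (95% interval -0.42 to -0.05) did not pass the test (adjusted p = 0.0922), although it did with a replicate block (-0.24, adjusted p = 0.0155). The other 5 members were at 0.07 (Pou5f1), 0.11 (Sox2), -0.10 (Klf2), 0.27 (Klf4) and -0.01 (Tfcp2l1), all with adjusted p above that of Esrrb. The comparison at 24 hr uses the same line and clones as that at 0 hr and adds no further clones.

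**Figure D2:**
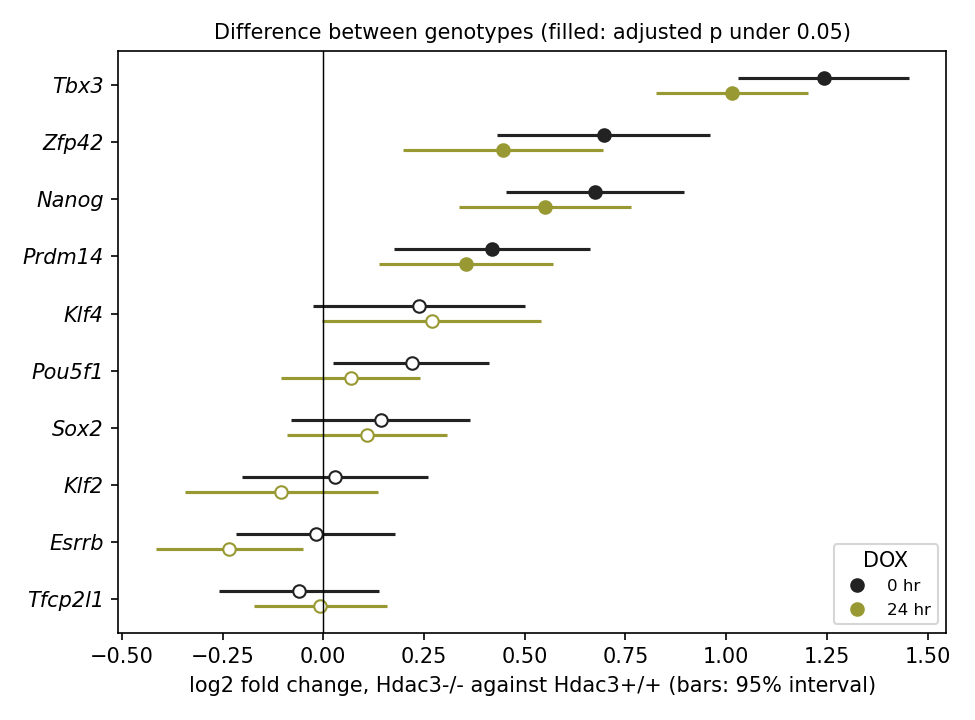
Log2 fold change of Hdac3-/- against Hdac3+/+ cells (x axis) for each factor at 0 hr (black) and 24 hr (olive), with 95% intervals as bars and filled points where the adjusted p is under 0.05. Tbx3 stands at 1.24 and 1.02, and the intervals of Klf2 and Tfcp2l1 span 0 at both times.

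Replicate numbers deviated together between the times in Hdac3-/- cells (Pearson r = 0.811 over 9120 genes, which are not independent). In these cells all 10 members kept the order of the 2 numbers from 0 to 24 hr, against 73.9% of all genes, while in Hdac3+/+ cells 6 of 10 did, against 61.4%. Nanog, Sox2, Klf4, Zfp42, Prdm14 and Tbx3 were higher in number 1, and Pou5f1, Klf2, Esrrb and Tfcp2l1 were higher in number 2. The gap between the numbers, averaged over both times, was 0.24 on the log2 scale for Zfp42, 0.23 for Klf4 and 0.20 for Nanog, and -0.21 for Klf2. For Tbx3 the gap of 0.15 was small against a distance from the Hdac3+/+ mean of 1.20 in number 1 and 1.05 in number 2. For Zfp42 those distances were 0.69 and 0.44, and for Klf4 0.37 and 0.13. Prdm14 was 0.46 and 0.31 above the Hdac3+/+ mean.

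TX1072 is a hybrid, so reads that cover a polymorphism tell which parental allele was transcribed. Allele-assigned reads made up 49.8% to 52.5% of Nanog reads and 82.1% to 85.5% of Prdm14 reads, but 0.556% to 0.962% of Pou5f1 reads, which left 29 to 62 allelic reads per sample and B6 shares of 46.5% to 66.7% with wide exact 95% intervals (36.0% to 72.7% in the sample with 31 of them). In Hdac3+/+ cells at 0 hr, Klf4, Tbx3, Klf2, Nanog, Tfcp2l1 and Esrrb were transcribed from both alleles at B6 shares near parity. These shares ran from 46.7% ± 2.96 (SD, n = 2) for Klf4 to 53.5% ± 1.12 for Esrrb. Pou5f1, at 56.6% ± 14.3 from 43 and 54 allelic reads, could not be placed. Sox2 was at 61.1% ± 2.49. Zfp42 and Prdm14 stood apart, with 16.4% ± 0.33 and 17.8% ± 0.82, both transcribed mostly from the Cast allele. Only 1.35% and 1.5% of 9284 autosomal genes had a B6 share as low or lower, whereas the median gene of the members' chromosomes was at 48.5% to 52.9% in every sample.

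In Hdac3-/- cells the B6 share was higher for Prdm14 at both times and lower for Zfp42, which was called at 24 hr only. The log2 ratio of B6 to Cast reads was compared between genotypes with edgeR over 9595 genes, of which 0.667% were called at 0 hr and 1.07% at 24 hr. For Prdm14 the B6 share was 18.3% (exact 95% interval 16.1 to 20.7) and 17.2% (14.9 to 19.7) in Hdac3+/+ and 28.0% (26.01 to 30.03) and 29.5% (26.93 to 32.16) in Hdac3-/- samples at 0 hr. The intervals, which cover counting error only, did not overlap between genotypes. The ratio rose by 0.90 ± 0.12 on the log2 scale (SE, adjusted p = 0.000729). In reads per 1000000 reads of the library (RPM), the B6 allele went from 16.2 and 14.2 to 32.1 and 29.5, and the Cast allele from 72.3 and 68.3 to 82.6 and 70.6. At 0 hr the B6 allele thus did not overlap between genotypes, while the Cast allele did. At 24 hr the B6 share was 18.2% and 17.8% in Hdac3+/+ and 24.1% and 27.6% in Hdac3-/- samples (0.66 ± 0.13, adjusted p = 0.0121). Both alleles were then without overlap, at 15.7 and 15.9 against 28.2 and 29.4 RPM for B6 and 70.5 and 73.2 against 89.0 and 77.2 RPM for Cast. The call at 24 hr was lost without either Hdac3+/+ sample (adjusted p = 0.160 and 0.159) or without Hdac3-/- replicate 2 (0.115). With limma on the B6 share Prdm14 was not called at either time (adjusted p = 0.491 and 0.404).

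For Zfp42 the B6 share at 0 hr was 16.2% (14.5 to 18.1) and 16.7% (14.7 to 18.8) in Hdac3+/+ and 8.64% (7.75 to 9.61) and 13.4% (11.96 to 14.99) in Hdac3-/- samples. The Hdac3-/- samples differed from each other beyond counting error, and the ratio did not pass the test (-0.72 ± 0.18, adjusted p = 0.121), although it did without Hdac3-/- replicate 2 (-1.06, adjusted p = 0.000638) and with a replicate block (-0.72, adjusted p = 0.00197). At 24 hr the shares were 17.0% and 17.5% against 7.82% and 11.4%, and the ratio was called (-0.999 ± 0.193, adjusted p = 0.0123), a call that was lost without either Hdac3+/+ sample (adjusted p = 0.196 and 0.207) or without Hdac3-/- replicate 1 (0.115), and with limma on the B6 share (0.445). The B6 allele of Zfp42 gave 21.3 and 18.9 RPM in Hdac3+/+ and 18.3 and 22.3 in Hdac3-/- samples at 0 hr, so its values overlapped. The Cast allele gave 110.0 and 94.3 against 193 and 144, without overlap. At 24 hr the B6 allele was lower in Hdac3-/- samples, at 24.4 and 25.8 against 16.9 and 20.8 RPM, and the Cast allele higher, at 119 and 121 against 199 and 162 RPM, both without overlap.

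Tbx3 and Nanog were higher from both alleles. Tbx3 had 83.1 and 83.1 RPM from the B6 allele in Hdac3+/+ and 208 and 188 in Hdac3-/- samples at 0 hr, and 93.2 and 92.3 against 202 and 186 RPM from the Cast allele. Its B6 share, 47.1% and 47.4% against 50.8% and 50.3%, did not pass the test (0.19, adjusted p = 0.407). Nanog had 256 and 244 against 389 and 318 RPM from the B6 allele, and 273 and 261 against 426 and 362 RPM from the Cast allele. The B6 shares of the 6 members other than Prdm14, Zfp42, Tbx3 and Nanog were not called at either time.

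**Figure D3:**
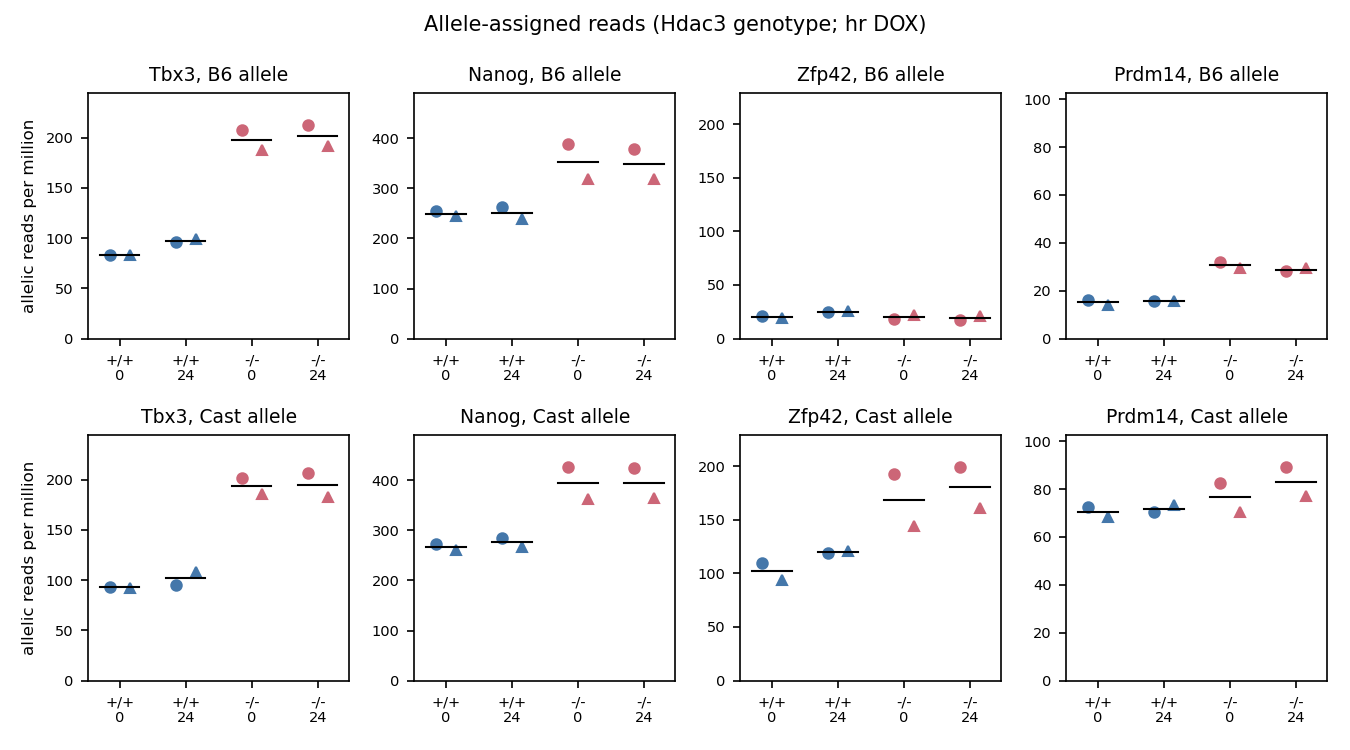
RPM (y axis, from 0) assigned to the B6 allele (upper row) and the Cast allele (lower row) of Tbx3, Nanog, Zfp42 and Prdm14 in the 4 groups (x axis, Hdac3 genotype above hr of DOX), with circles for replicate 1, triangles for replicate 2 and a line at the mean. In Hdac3-/- samples both alleles of Tbx3 and Nanog are higher, for Zfp42 the Cast allele is higher while the B6 allele overlaps at 0 hr and is lower at 24 hr, and for Prdm14 the B6 allele moves from 14.2 to 16.2 up to 29.5 to 32.1 at 0 hr.

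Addition of DOX for 24 hr gave no call in any member without pairing of the samples. In Hdac3+/+ cells 0.21% and in Hdac3-/- cells 0.0217% of 13807 genes were called by edgeR, and 0.0% differed in their DOX response between genotypes. At an unadjusted p under 0.05 there were 2 members in Hdac3+/+ cells (Zfp42, 0.28 ± 0.11, and Tbx3, 0.22 ± 0.08, SE), 0 in Hdac3-/- cells and 0 for the difference in response. Of all genes tested 7.18%, 1.93% and 1.89% were under it. DESeq2 and voom with limma also called 0 members in each. In Hdac3+/+ cells both 24 hr samples were above both 0 hr samples for Tbx3, Zfp42, Esrrb and Pou5f1 and below them for Tfcp2l1. In Hdac3-/- cells the 2 times overlapped for all 10 members. The share of all genes so separated between the times was not counted, so these orders do not show a difference between genotypes. When same-numbered samples were paired within each genotype, Zfp42 (0.28, adjusted p = 1.02e-05), Tbx3 (0.22, adjusted p = 4.83e-05), Pou5f1 (0.16, adjusted p = 0.0086) and Esrrb (0.14, adjusted p = 0.018) were called as higher with DOX in Hdac3+/+ cells and 0 members in Hdac3-/- cells. Over all 13807 genes that fit called 1531 in Hdac3+/+ and 281 in Hdac3-/- cells, so more calls in Hdac3+/+ cells are not particular to the members. In the same fit the response of Tbx3 (-0.22 ± 0.06, SE, adjusted p = 0.0208), Esrrb (-0.21 ± 0.06, adjusted p = 0.0394) and Zfp42 (-0.24 ± 0.07, adjusted p = 0.0423) was called as lower in Hdac3-/- than in Hdac3+/+ cells. For this difference 289 of the 13807 genes were called. The labels do not say whether a number marks a shared culture, and same-numbered samples deviated together less in Hdac3+/+ cells (r = 0.465) than in Hdac3-/- cells. Allelic ratios were called in 0 members with DOX, at 1.61% of genes in Hdac3+/+ and 0.406% in Hdac3-/- cells. There were 0 members at an unadjusted p under 0.05, against 5.46% and 4.36% of genes, and 0 called with limma.

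The inputs of the network were examined next. Over all genes tested 13.6% were called at 0 hr and 12.9% at 24 hr, beside which the counts in these and the following lists stand. Of 5 genes of the LIF and STAT3 pathway, 2 were lower in Hdac3-/- cells at 0 hr and 3 at 24 hr, and 0 were higher. Lifr, the LIF receptor, had 99.2 and 90.9 CPM in Hdac3+/+ and 55.9 and 67.8 CPM in Hdac3-/- samples at 0 hr (-0.62, adjusted p = 0.0191). Il6st had 194 and 210 CPM against 111 and 157 CPM (-0.59, adjusted p = 0.0449). Stat3 was at -0.47 at 0 hr (adjusted p = 0.0798) and -0.51 at 24 hr (adjusted p = 0.0447). Of 7 genes of the WNT and GSK3 branch, Ctnnb1, which encodes beta-catenin, was higher (0.33, adjusted p = 0.0365) and the TCF family member Lef1 was lower, with 70.7 and 119.5 CPM against 22.8 and 30.6 CPM (-1.83, adjusted p = 0.00445), and both were called at 24 hr as well. Tcf7l1, the repressor in this branch, was at 0.13 (adjusted p = 0.365). Klf4 and Tfcp2l1, known targets of STAT3, were at 0.24 and -0.06 at 0 hr, and Socs3, of the LIF and STAT3 list, was at -0.25. None of these was called by edgeR. Whether the lower receptor transcripts changed STAT3 activity was not tested.

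Other genes linked to pluripotency were called in both directions. Of 20 tested, 2 were higher and 4 lower at 0 hr, and 1 was higher and 6 lower at 24 hr, with a median log2 fold change of -0.13 and -0.26. Dppa3 (Stella), a maternal factor that protects DNA from demethylation in the zygote, fell from 83.6 and 78.8 CPM to 16.4 and 18.7 CPM (-2.21, adjusted p = 0.000312). The homeobox gene Gbx2 was at -1.74, the NODAL co-receptor gene Tdgf1 at -1.46 and the TGF-beta family ligand gene Gdf3 at -0.79, all called at both times. The cell adhesion gene Pecam1 (0.57) and the zinc finger gene Sall4 (0.35) were higher at 0 hr, and the nuclear receptor gene Nr5a2 (-0.51) and Mycn (-0.44) were lower at 24 hr. Of 8 genes known to promote exit from the naive state, 2 were higher at 0 hr and 2 at 24 hr, and 0 were lower at either time. Rbpj, the DNA-binding partner of NOTCH, was higher at 0 hr (0.86, adjusted p = 0.00264) and at 24 hr (0.76, adjusted p = 0.00403). Of 6 genes that respond to ERK, Etv4 had 0.983 and 1.46 CPM in Hdac3+/+ and 40.7 and 33.6 CPM in Hdac3-/- samples (4.93, adjusted p = 0.000312), while its paralogue Etv5 was at 0.22 (adjusted p = 0.224), and the other 4 were not called. Without Hdac3+/+ replicate 1 or 2 at 0 hr, 6 of the 13 calls in these lists remained, among them Lef1, Dppa3, Gdf3, Rbpj and Etv4 under both, and those of Lifr and Il6st did not. At 24 hr 6 and 3 of 15 remained without Hdac3+/+ replicate 1 and 2, with Dppa3, Gdf3 and Etv4 under both.

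The genes around the members were then compared, within 250 kb of each start site. Of 65 such genes, 42 were tested at 0 hr, and 4 were higher and 5 lower in Hdac3-/- cells. The 4 include Gm16063, which could be called only as higher, as given below. Over all genes tested at 0 hr 13.6% were called, 6.33% as higher. Around Tbx3 (chr5:119670669-119684724, GRCm38, plus strand) 2 neighbours were tested, both of them lincRNAs. Gm16063 starts 44727 bp before Tbx3. It had 0 reads in both Hdac3+/+ samples at 0 hr and 106 and 56 reads in the Hdac3-/- samples, at least 23.4-fold higher against a floor of 3 reads per library. It passed the filter (a TPM over 1 in at least 2 samples) through the Hdac3-/- samples alone, so that it could be tested only as higher. Tbx3os2, on the other strand beyond the end of Tbx3, had 26 and 14 reads (2.13 and 1.28 CPM) in Hdac3+/+ and 252 and 105 reads (16.5 and 9.84 CPM) in Hdac3-/- samples (2.94, adjusted p = 0.00321). The lncRNA AW549542 reaches from 100540 bp before the Tbx3 start site towards it and has no exon length in the annotation, so it was not among the genes tested. It had 4 and 1 reads in Hdac3+/+ and 68 and 34 reads in Hdac3-/- samples.

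Around Sox2 (chr3:34650405-34652461, plus strand), which itself was not called, the lincRNAs were higher too. Gm3143, whose start lies 66257 bp beyond that of Sox2, had 1.23 and 0.366 CPM in Hdac3+/+ and 16.2 and 19.8 CPM in Hdac3-/- samples at 0 hr (4.45, adjusted p = 0.000965). Gm38509, 121670 bp beyond, had 2.29 and 1.46 CPM against 7.26 and 6.84 CPM (1.90, adjusted p = 0.00980). Sox2ot, the long noncoding gene in whose intron Sox2 lies on the same strand with 0 bp of shared exon, had 3.36 and 3.38 CPM against 7.72 and 8.15 CPM. It also needed the Hdac3-/- samples to pass the filter, so it could be tested only as higher and no p-value is given. Sox2 was at 1.10-fold in the same samples.

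Around Nanog (chr6:122707489-122714633, plus strand) the called neighbours went the other way. Dppa3 and Gdf3 lie 81079 and 97402 bp before the Nanog start site and fell as given above, and the forkhead gene Foxj2, 112425 bp beyond, had 39.7 and 40.4 CPM against 22.9 and 19.5 CPM (-0.91, adjusted p = 0.00747). The 6 other tested genes of this window were not called. Of 11 tested genes around Klf2 the tropomyosin gene Tpm4 was lower (-0.82), and of 2 around Zfp42 Triml1 was (-0.76). Around Pou5f1, Klf4, Esrrb, Tfcp2l1 and Prdm14 0 of 16 tested neighbours were called by edgeR at 0 hr. Without Hdac3+/+ replicate 1 or 2 at 0 hr, the calls of Gdf3, Dppa3, Gm3143 and Tbx3os2 remained. For Gm16063, which could be called only as higher, this check says nothing. Without an Hdac3-/- sample Gm16063 no longer passed the filter. At 24 hr 8 of the 9 genes were called again, without Triml1 and with Rab8a (-0.53) near Klf2 in addition. The 8 include Gm16063, with 1 read in each Hdac3+/+ sample at 24 hr.

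**Figure D4:**
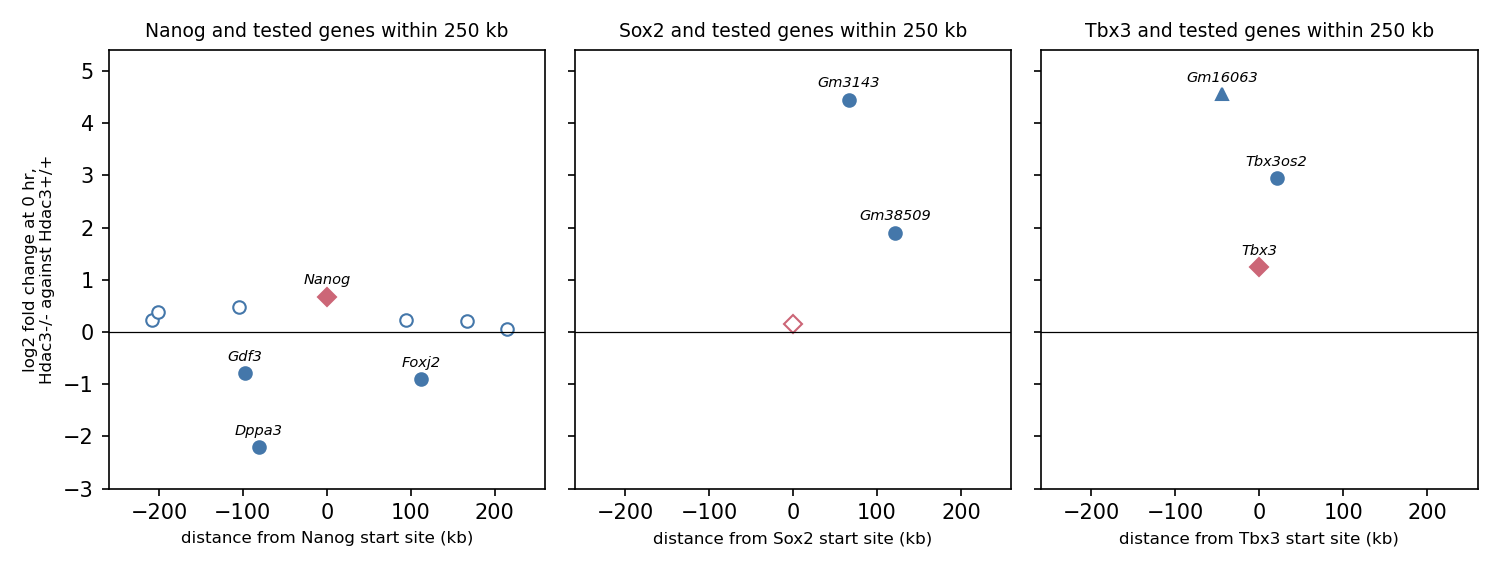
Log2 fold change at 0 hr of Hdac3-/- against Hdac3+/+ cells (y axis) for tested genes by distance of their start site from that of Nanog, Sox2 and Tbx3 (x axis, kb along the member's strand), with the member as a diamond, filled symbols and names for an adjusted p under 0.05, and a triangle for Gm16063 at its lower bound of 4.55. Noncoding neighbours of Sox2 and Tbx3 lie above 0, and Dppa3, Gdf3 and Foxj2 lie below 0 beside Nanog.

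Tbx3, Nanog and Zfp42 varied most over the 8 samples, with an SD of log2 CPM of 0.61, 0.34 and 0.33. The genes with the most similar pattern among 8806 with a mean of at least 10 CPM were Hspa9, a mitochondrial chaperone gene, and the elongation factor gene Eef2 for Tbx3 (Pearson r = 0.998 and 0.995 across the 8 samples), Phf10, a subunit gene of a BAF-type remodelling complex, and Fam45a for Nanog (0.998 and 0.993), and the casein kinase gene Csnk1e and the antiviral adaptor gene Mavs for Zfp42 (0.998 and 0.996). The samples fall into the 2 genotypes, so these values mainly reflect that split. Hspa9 had 656.8 to 720.3 CPM in Hdac3+/+ and 897 to 942 CPM in Hdac3-/- samples, a smaller difference than that of Tbx3.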

How the data were processed

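Total RNA of 8 samples was depleted of rRNA and sequenced. Per the labels, the submitters' processing notes name mm10, TopHat2 2.1.0, featureCounts 1.5.1 and bedtools. The authors deposited one table per sample with read counts per gene, without normalization, B6 and Cast allele counts, and a B6 fraction (the d-score), which was not used here since it was recomputed from the counts. A TPM over 1 in 2 or more samples was required, and genes were tested with edgeR 4.0.16 (R 4.3.3; TMM, quasi-likelihood, Benjamini-Hochberg over all genes tested, threshold 0.05). Hdac3-/- and Hdac3+/+ at 0 hr were fitted alone, and the other contrasts in all 8 samples. Allelic ratios were tested with edgeR on B6 and Cast counts with a term per sample, for genes with at least 10 allelic reads in every sample. TPM used GENCODE M21 exon lengths (GRCm38), and 660 of 24542 symbols had none. CPM is relative to 1000000 reads on the tested genes, and RPM of an allele to 1000000 reads of the library. Alternatives used DESeq2 1.42.0, limma 3.58.1, other filters, replicate blocks and samples left out. With 2 samples a group, a permutation test cannot go below p = 0.333. The expression fit and the allelic fit were tested on simulated data for Hdac3-/- against Hdac3+/+ at 0 hr, and the other steps were not.

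The members and gene lists were chosen with earlier results of these data known. All members are named, with Hdac3, at most 4 called genes per list and comparison by absolute log2 fold change, and the 2 genes most similar to each of the 3 most variable members. Pecam1, Sall4, Nr5a2, Mycn, Foxj2, Tpm4, Triml1, Rab8a, Sox2ot, AW549542, Cdh1, Sox7, Sox17, Pdgfra and genes named as not called were added after their values were seen. 1 gene of these lists is not reported here by name.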

Additional observations from a re-analysis of the deposited data

Results flagged for a closer look

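The response to 24 hr of DOX differed between genotypes for Tbx3, Esrrb and Zfp42 when same-numbered samples were paired within each genotype, by a test of the difference itself in edgeR. The response in Hdac3-/- minus that in Hdac3+/+ cells was -0.22 for Tbx3 (adjusted p = 0.0208), -0.21 for Esrrb (adjusted p = 0.0394) and -0.24 for Zfp42 (adjusted p = 0.0423) on the log2 scale, and 289 of 13807 genes were called. Without the pairing the same differences were -0.22, -0.21 and -0.24 and 0 genes were called. The labels do not say that a replicate number of Hdac3+/+ cells marks a shared culture or day.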

How the results depend on the processing

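With 2 samples a group, calls near the threshold depended on single samples. The number of members called ranged from 1 to 5 at 0 hr and from 1 to 3 at 24 hr when each sample was left out in turn, and for allelic ratios from 1 to 2 and from 0 to 1. It stayed within 1.5 times of 4 under DESeq2, voom with limma, no filter, other sample sets and the replicate block in both comparisons of genotypes, where the replicate block gave 4 members at 0 hr and 5 at 24 hr, adding Esrrb (-0.24, adjusted p = 0.0155). Over all genes, calls went from 1795 at 0 hr to between 326 (without Hdac3+/+ replicate 1) and 3361 (without Hdac3-/- replicate 1), with 3107 without the filter and 2944 with the block, and from 1786 at 24 hr to between 440 and 3378. For DOX they ranged from 2 to 1531 in Hdac3+/+ and from 1 to 281 in Hdac3-/- cells, and for allelic ratios between genotypes from 1 to 121 at 0 hr and 1 to 152 at 24 hr. Pairing within each genotype gave 4 members for DOX in Hdac3+/+ cells (Tbx3, Zfp42, Esrrb and Pou5f1, all higher), 0 in Hdac3-/- cells and 3 for the difference in response, with 1531, 281 and 289 genes called against 29, 3 and 0. Same-numbered samples correlated at r = 0.465 in Hdac3+/+ and 0.811 in Hdac3-/- cells. Limma on the B6 share called 0 members at 0 hr and 0 at 24 hr, and the replicate block 2 at 0 hr. The cause was not tested. The ratio of the highest to the lowest member was 11.03 in TPM and 13.26 in CPM, with or without Rn45s, and Tfcp2l1 took the place of Nanog as highest. Rn45s has no exon length, so leaving it out changed no test. Of 876 member values under alternatives, 838 stayed on their side of the threshold, 27 lost a call, 11 gained one and 0 called values changed sign.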
